A study of Mus musculus with 2 samples.

Results

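Monocyte progenitors with high granule genes were 678 of the 11416 bone marrow cells that passed the cell filter, 503 from the wild-type library and 175 from the knock-in library. A cell entered the monocyte progenitor gate when Ly86, F13a1, Irf8 and Ms4a6c together reached 5 UMIs per 10000 UMIs of the cell (CP10k) and at least matched Cebpe, S100a8, S100a9 and Fcnb together. UMIs, the molecular barcodes added at capture, count RNA molecules and not their amplified copies. The gate also required Car1 under 5 CP10k and fewer than 3 UMIs of Dntt and Flt3. It held 1355 cells over both libraries, and those at or above the pooled median of the summed Mpo, Elane, Prtn3 and Ctsg level, 213.3 CP10k, are called granule-high here. The 677 gated cells under that level are called granule-low. The member just inside the limit had 213.3 CP10k and the cell just outside had 212.8 CP10k, so the set is a range of a continuous score and not a separate cluster. Within 5% of the limit lay 38 wild-type cells above and 38 below, and 19 knock-in cells above and 6 below.

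Marrow cells sorted as negative for lineage markers and positive for the Kit receptor were profiled by droplet 3′ single-cell RNA sequencing. There was 1 library from wild-type mice and 1 from mice carrying a knocked-in mutation of GATA-1, the erythroid and megakaryocytic transcription factor. The design names the change in marrow cell populations and gene regulation as the question. The labels do not give age, sex, strain, zygosity, the residue changed or the number of mice pooled. With 1 library per genotype no test of genotype could be made: every interval below is a 95% exact counting interval, covers counting error only, and leaves out the spread between animals. After filtering, the wild-type library held 5635 cells with a median of 9826 UMIs and the knock-in library 5781 cells with a median of 5449 UMIs. Depth was closer among granule-high cells, with medians of 11308 UMIs and 2925 genes in wild type and 10870 UMIs and 2964 genes in knock-in. The members held 5834016 wild-type and 1888738 knock-in UMIs, and their median mitochondrial share was 3.73% and 3.60%. The files shared 10 cell barcodes, none of them in a granule-high cell.

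Mpo encodes myeloperoxidase, and Elane, Prtn3 and Ctsg encode neutrophil elastase, proteinase 3 and cathepsin G, serine proteases stored in primary granules. Progenitors of both neutrophils and monocytes make these proteins early, at the promyelocyte and early monocyte stages, and stop transcribing the genes as they mature. Irf8 and Klf4 are transcription factors of the monocyte path, Gfi1 and Cebpe of the neutrophil path, and Spi1 (PU.1) with Cebpa acts in both. Gata1 itself is not a gene of monocyte progenitors in normal marrow.

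The 4 granule genes are shown here by sequence near their promoters because their summed level defines the cells. Each stretch lies upstream of the RefSeq start site in the GRCm38.p6 (mm10) RefSeq promoter table, reads 5′ to 3′ on the gene's strand, and overlaps 0 exonic bases of the GENCODE M21 annotation. Capitals mark GAGGAA, a core letter string recognised by PU.1 and other ETS factors, which was searched on both strands.
Mpo: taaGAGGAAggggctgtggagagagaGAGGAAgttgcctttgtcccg
Elane: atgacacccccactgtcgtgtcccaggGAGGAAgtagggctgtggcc
Prtn3: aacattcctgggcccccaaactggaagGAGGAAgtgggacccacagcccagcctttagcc
Ctsg: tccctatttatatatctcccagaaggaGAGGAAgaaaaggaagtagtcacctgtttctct

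The Mpo stretch is chr11:87793534-87793580 on the plus strand, and the Elane stretch is chr10:79886200-79886246 on the plus strand. The Prtn3 stretch is chr10:79879545-79879604 on the plus strand, and the Ctsg stretch is chr14:56102758-56102817 on the minus strand. Within the 250 bases upstream of the start, Mpo had 2 matches and Elane, Prtn3 and Ctsg had 1 each. Of 32851 windows of the same length in the table, 23.3% held the string. The C/EBP string TTGCNNAA and the GATA string AGATAA had 0 matches in these 4 windows, against 9.56% and 9.99% of all windows. The MYB string AACNGC had 2 matches in Elane, 1 each in Prtn3 and Ctsg and 0 in Mpo, against 29.9% of all windows. The TATA box string TATAAA had 1 match in Ctsg and 0 in Mpo, Elane and Prtn3, against 12.4%. A match describes letters and shows no binding, and the absence of one says only that these letters are not in the window.

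Spi1, which encodes PU.1, had levels of 257 and 286 CPM in the granule-high cells of the wild-type and knock-in libraries; paired values below keep that order. CPM is the sum of a gene's UMIs over the granule-high cells of a library, per 1000000 of all their UMIs. The log2 ratio of knock-in over wild type was 0.16 (0.01 to 0.30). Log2 ratios below are of the same kind unless stated otherwise.

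The 4 granule genes chose the cells, so their values are a description and support nothing. The summed level had a median of 281.5 CP10k in wild-type cells and 282.7 CP10k in knock-in cells, with highest cells of 597 and 616 CP10k. Mpo ran from 23.1 through a median of 74.7 to 223 CP10k in wild-type cells and from 43.9 through 77.7 to 272 CP10k in knock-in cells. Elane ran from 17.0 through 85.4 to 351 CP10k in wild type and from 17.7 through 82.8 to 202 CP10k in knock-in. For both genes the 2 libraries overlapped over most of their cells, and the highest Elane levels were in wild type.

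Prtn3 ran from 40.8 through 93.2 to 243 CP10k in wild type and from 43.6 through 85.6 to 165 CP10k in knock-in. Ctsg ran from 9.87 through 28.9 to 88.4 CP10k in wild type and from 14.9 through 37.9 to 96.1 CP10k in knock-in. Of the 4, Ctsg was shifted the most between the libraries, and its middle ranges still met: the upper edge of the central part in wild type was 35.97 CP10k and the lower edge in knock-in was 29.97 CP10k (75th and 25th percentiles). In summed levels, Ctsg had a log2 ratio of 0.38 (0.34 to 0.42), Mpo 0.08 (0.05 to 0.11), Elane -0.10 (-0.12 to -0.07) and Prtn3 -0.12 (-0.15 to -0.10). The small Mpo value changes sign when libraries are scaled by median ratios.

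**Figure D1:**
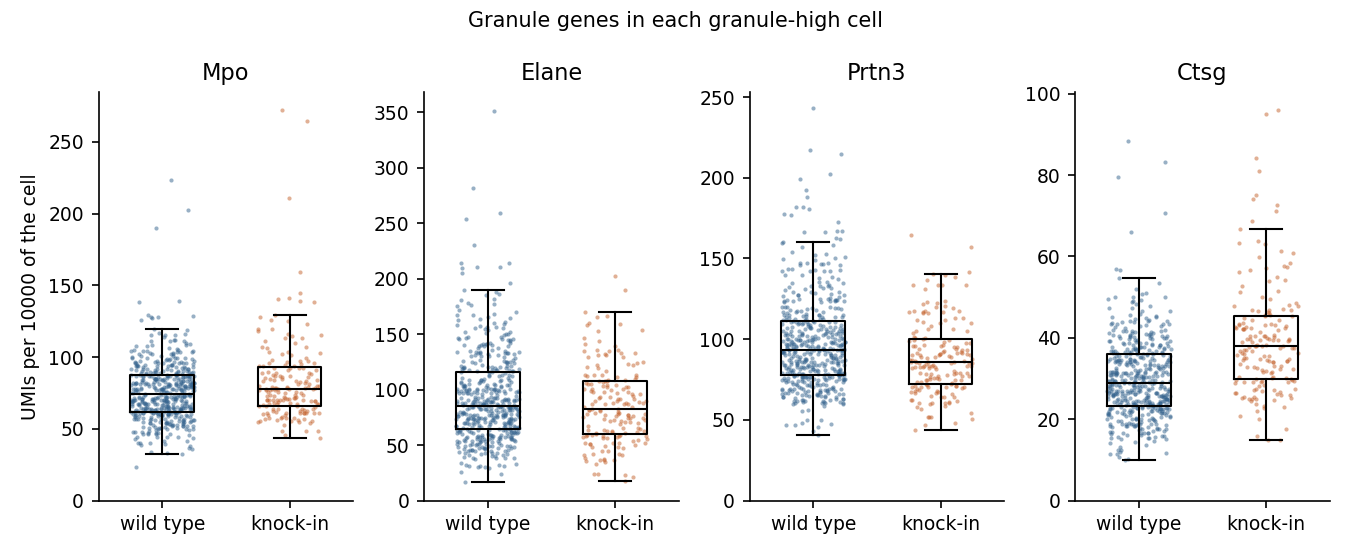
Level of Mpo, Elane, Prtn3 and Ctsg in each granule-high cell (points, UMIs per 10000 UMIs of the cell), by library; boxes give the median and the 25th and 75th percentiles, and whiskers reach the farthest cell within 1.5 box lengths. The Ctsg median was 28.9 in 503 wild-type cells and 37.9 in 175 knock-in cells, while the other 3 medians lay closer together.

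Across single cells Elane and Prtn3 varied together, with a Pearson r on log2(CP10k + 1) of 0.45 over 503 wild-type cells and 0.37 over 175 knock-in cells. These 2 genes lie near each other on chromosome 10. Mpo and Elane had r of -0.02 in wild type and 0.20 in knock-in. All 4 levels share the depth of the cell and were selected on their sum, which shapes these values.

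Granule-high cells were 8.93% (8.19 to 9.70) of the filtered cells in wild type, against 3.03% (2.60 to 3.50) in knock-in, a log2 ratio of shares of -1.56 (-1.82 to -1.31), or 2.95-fold fewer. The limit of 10% on the mitochondrial share was exceeded by 1722 wild-type barcodes (23.05%) and 760 knock-in barcodes (11.4%), which are outside these totals. With a limit of 20% the shares were 9.13% and 3.44%, a log2 ratio of -1.41. Granule-low cells were 8.04% and 3.87%, a log2 ratio of -1.05 (-1.29 to -0.82). In cells of a neutrophil gate, Cebpe, S100a8, S100a9 and Fcnb together reached 5 CP10k and exceeded the monocyte genes. The Car1, Dntt and Flt3 limits of the members applied there too. Neutrophil-gate cells were 4.29% and 1.21%, a log2 ratio of -1.83 (-2.23 to -1.44). Car1 cells had at least 20 CP10k of the erythroid carbonic anhydrase gene Car1. They also had under 5 CP10k of Ly86, F13a1, Irf8 and Ms4a6c together. Car1 cells were 27.4% and 27.8%, a log2 ratio of 0.02 (-0.08 to 0.12). The lower share was therefore seen in granule-high, granule-low and neutrophil-gate cells and not in Car1 cells.

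Within the gate, granule-high cells made up 52.6% (49.4 to 55.8) of the 956 gated cells in wild type, against 43.9% (38.9 to 48.9) of the 399 in knock-in, a log2 ratio of -0.26 (-0.52 to -0.01). The gate and the sort set these shares, and the median depth over all filtered cells differed between the libraries. With the limit placed at each library's own median, the share of filtered cells still had a log2 ratio of -1.29.

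**Figure D2:**
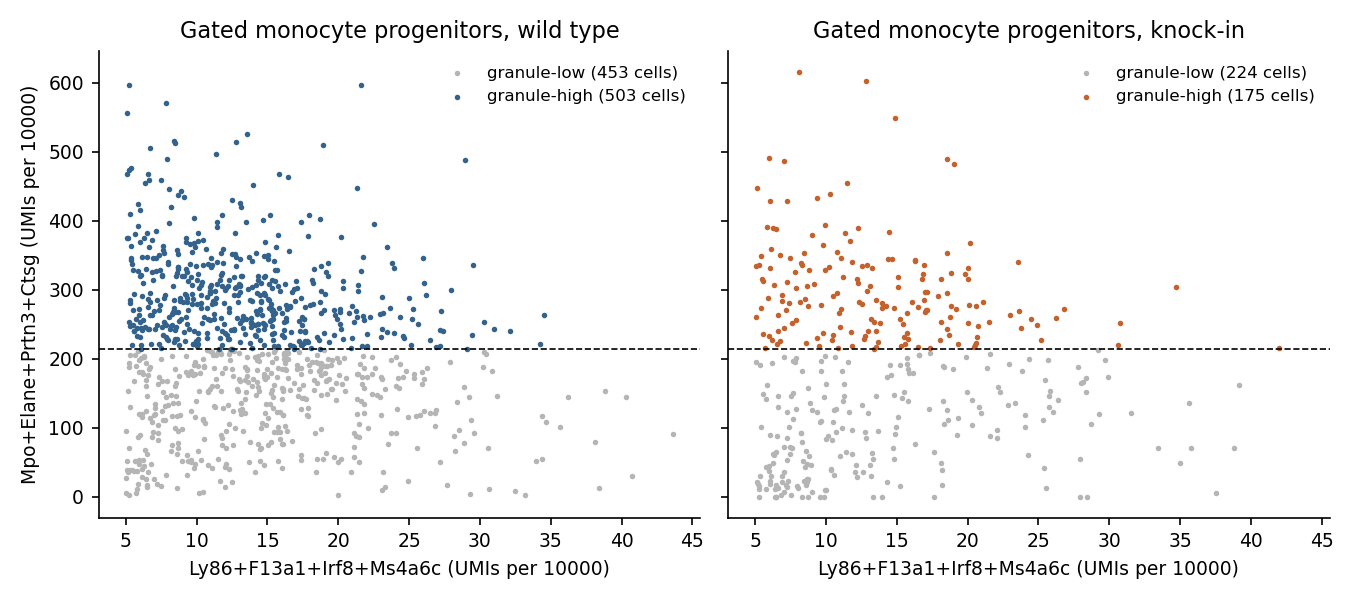
Summed monocyte genes (x axis) against summed granule genes (y axis) in every gated cell, both in UMIs per 10000, with the dashed line at the pooled median of 213.3. Points above the line are the 503 wild-type and 175 knock-in granule-high cells, and the cells run across the line without a gap.

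Marker genes fitted the label in part. The monocyte receptor genes Csf1r and Ccr2 were present in granule-high cells at 52.97 and 61.9 CPM in wild type and at 58.8 and 67.2 CPM in knock-in, against 1.30 CPM or less in the Car1 cells of either library. Neutrophil-gate cells had 4.94 and 12.9 CPM of Csf1r. Ly6c2, an antigen gene of inflammatory monocytes, stood at 1320 and 1456 CPM in granule-high cells, above the 704 and 490 CPM of granule-low cells. Ly6c2 was also common in the neutrophil gate. Among cells thinned to 5000 UMIs, 82.3% and 51.1% of neutrophil-gate cells had it, against 68.1% and 52.7% of granule-low cells. In granule-high cells these shares were 98.8% and 96.3%. Klf4 stood at 30.3 and 28.6 CPM.

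Gfi1 (22.97 and 24.9 CPM) and Csf3r, the granulocyte colony-stimulating factor receptor gene (162 and 51 UMIs), were also present, so genes of both paths were measured in the set. After each cell was thinned to 5000 UMIs, Csf1r was detected in 24.1% (20.4 to 28.2) of the 485 cells from wild type and in 26.4% (19.8 to 33.8) of the 163 from knock-in, and Gfi1 in 12.6% and 9.20%. The shallower cells left out numbered 18 and 12. Without thinning the shares were 43.5% and 44.0% for Csf1r and 22.3% and 22.3% for Gfi1. In thinned Car1 cells, which should lack both, Csf1r was seen in 0.290% and 0% and Gfi1 in 0.653% and 0.226%. Cells high in the monocyte genes of the gate had been left out of that Car1 set by its definition. Median depth before thinning was 18251 and 13509 UMIs in those Car1 cells.

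Markers of other cell types were low in the granule-high cells. The gate itself limited Cebpe, S100a8, S100a9 and Fcnb among the neutrophil markers, Dntt and Flt3 among the lymphoid ones, and Car1 among the erythroid ones. Those 3 sums were therefore set in part by the rule, and for these genes the values are a description. Of 9 neutrophil progenitor markers, Ltf, Camp and Ngp were at 0 UMIs in wild type and S100a9, Camp and Ngp at 0 in knock-in; the 9 summed to 116 and 113 CPM. Of 7 dendritic cell markers, Siglech and Cd209a were at 0 in both libraries, and the sums were 37.2 and 47.1 CPM. The lymphoid markers Cd79a, Cd3e, Il7r and Rag1 were at 0 in both, with sums over 7 markers of 3.77 and 4.77 CPM. Erythroid markers summed to 71.3 and 711 CPM, mast and basophil markers to 21.1 and 39.2 CPM and stem cell markers to 14.6 and 19.6 CPM. The cells that hold the first 2 of these sums in knock-in are described with the globin and Mcpt8 counts. Eosinophil markers summed to 2.23 and 2.12 CPM and megakaryocyte markers to 6.17 and 5.29 CPM. The Cd74 and H2-Aa genes of antigen presentation had 5 and 4 UMIs in wild-type granule-high cells and 0 in knock-in ones.

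The granule-low cells used for comparison below were more mixed. Knock-in granule-low cells held 82 UMIs of the B-cell gene Cd79a and 47 of Ebf1, against 0 and 1 in wild type, and 138 against 24 UMIs of the platelet factor gene Pf4. Wild-type granule-low cells held 449 UMIs of the basophil protease gene Prss34, against 0 in knock-in. The neutrophil gate was mixed as well. Eosinophil markers summed there to 821 and 204 CPM, and mast and basophil markers to 189 and 369 CPM. Erythroid markers summed there to 744 and 165 CPM. The part such cells play in differences from granule-low or neutrophil-gate cells was not tested.

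**Figure D3:**
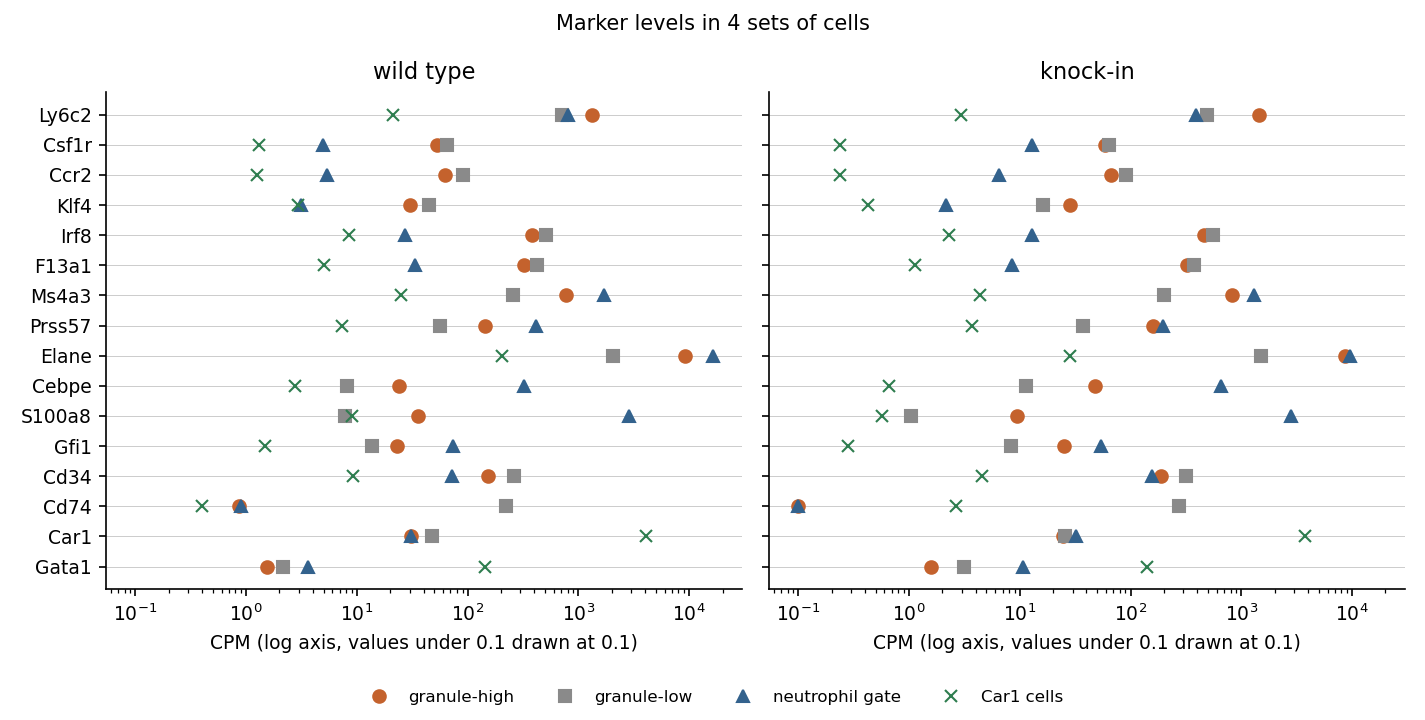
Summed level (CPM, log axis) of 16 genes in granule-high, granule-low, neutrophil-gate and Car1 cells, wild type on the left and knock-in on the right; values under 0.1 are drawn at 0.1. Csf1r and Ccr2 separate the gated monocyte progenitors from the neutrophil gate, and Cd74 separates granule-low from granule-high cells.

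The GATA-1 gene checks no label here, since a knocked-in mutation need not alter the transcript count. Gata1 had 9 UMIs in wild-type and 3 in knock-in granule-high cells, 1.54 and 1.59 CPM, while 50.4% and 49.96% of thinned Car1 cells had a Gata1 UMI. Gata2, a related factor of stem and mast cells, had 42 and 12 UMIs, 7.20 and 6.35 CPM. Of 13 genes listed for GATA factors and their partners, 9 were measured, meaning at least 50 UMIs over the granule-high cells of both libraries. Their median was 0.16, with 6 higher and 3 lower. Of all genes measured in this way, 60.9% were higher, with a median of 0.09, so the list lay near that share. Among the 9 genes, Cbfa2t3, a corepressor gene, stood at 34.5 and 53.5 CPM, a log2 ratio of 0.63 (0.27 to 0.99). Ldb1, which encodes a bridging cofactor, stood at 23.5 and 33.9 CPM, a log2 ratio of 0.53 (0.08 to 0.97). Lmo2, another cofactor gene, was at 207 and 185 CPM.

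Over 7868 measured genes, 4793 (60.9%) were higher in knock-in granule-high cells and 3075 (39.1%) were lower, with a median log2 ratio of 0.09. Scaling by the median ratio of all genes made that split 49.98% higher, so a list is read below against the median of 0.09. At least 1.5-fold higher were 567 genes (7.21%) and at least 1.5-fold lower 418 (5.31%). At least 2-fold higher were 74 (0.941%) and at least 2-fold lower 127 (1.61%). Counting error alone can carry a gene with few UMIs past these folds. With at least 200 UMIs required, 15 genes were 2-fold higher and 46 lower.

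Genes of granule proteins outside the rule were close to level between the libraries. The 14 measured had a median of 0.06, with 8 higher, 6 lower and none past 1.5-fold either way. Ms4a3, a membrane gene of granulocyte and monocyte progenitors, stood at 770 and 815 CPM. Prss57, which encodes a further granule protease, stood at 144 and 159 CPM, and Srgn, the proteoglycan that holds granule proteases, at 1599 and 1411 CPM. Lyz2, the lysozyme gene, stood at 209 and 252 CPM, a log2 ratio of 0.27 (0.11 to 0.42). In granule-low cells the median of the same list was -0.21, and in the neutrophil gate it was -0.47. Of 18 genes of the later specific and gelatinase granules 2 were measured: Lcn2, the lipocalin gene, at 18.9 and 8.47 CPM, and Ltb4r1, a leukotriene receptor gene, at 42.7 and 41.3 CPM.

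Protein folding genes of the secretory pathway included some of the best counted differences. Calr, the calcium-binding chaperone calreticulin, stood at 1419 and 2106 CPM, a log2 ratio of 0.57 (0.51 to 0.62). Hspa5, the main chaperone of the endoplasmic reticulum, stood at 779 and 1125 CPM, 0.53 (0.46 to 0.61). Dnajc3, a co-chaperone of Hspa5, stood at 153 and 218 CPM, 0.50 (0.33 to 0.67).

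Of 29 measured genes on this list 20 were higher and 9 lower, none by 1.5-fold, and the median of 0.09 equalled that of all genes. The translocon gene Sec61b was at 1609 and 1538 CPM, and the stress factor genes Xbp1 (120 and 123 CPM) and Ddit3 (11.3 and 7.94 CPM) had intervals that spanned 0. The higher levels thus covered particular chaperones and not the list as a whole. In granule-low cells Calr had a log2 ratio of 0.27 and Hspa5 0.26, in the neutrophil gate 0.98 and 0.57, and in Car1 cells 0.38 and 0.06.

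Genes of monocyte function outside the gate were split, 11 higher and 11 lower of 22, with a median of 0.02. Ccl9, a chemokine gene, stood at 70.1 and 125 CPM, a log2 ratio of 0.84 (0.60 to 1.07). Emb, an adhesion molecule, stood at 430 and 554 CPM, 0.36 (0.26 to 0.47), and Tyrobp, the signalling adaptor DAP12, at 747 and 846 CPM. In the other direction, Slpi, a secreted inhibitor of leukocyte elastase, stood at 514 and 304 CPM, -0.76 (-0.89 to -0.63). Fcer1g, the Fc receptor gamma chain, stood at 531 and 399 CPM, -0.41 (-0.53 to -0.30). Csf1r, Ccr2 and Klf4 had intervals that spanned 0.

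Fcgr3, the low-affinity IgG receptor gene and a surface marker of granulocyte and monocyte progenitors, stood at 163 and 63.0 CPM, a log2 ratio of -1.37 (-1.66 to -1.10). It was also lower in granule-low cells (-0.60), in the neutrophil gate (-0.75) and in Car1 cells (-0.89). The 11 measured Fc, lectin and pattern receptors had a median of -0.23, and 7 of them were lower and 4 higher, against 39.1% lower over all genes. That median became 0.17 when genes with as few as 1 UMI were kept. Clec12a, an inhibitory lectin gene, stood at 327 and 266 CPM and Cd93 at 79.4 and 101 CPM.

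Among 6 subunits of the phagocyte NADPH oxidase, the complex that makes superoxide, Ncf4 stood at 111 and 219 CPM, a log2 ratio of 0.98 (0.80 to 1.16). Cybb and Cyba, the membrane subunits, were at 0.02 and -0.08, the cytosolic subunit gene Ncf1 at 0.18, and the small GTPase gene Rac2 at -0.07. Ncf4 was also higher in granule-low cells (1.08), in the neutrophil gate (0.83) and in Car1 cells (0.32).

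The 20 measured myeloid transcription factors had a median of 0.16, with 12 higher and 8 lower, near the 60.9% higher over all measured genes. Irf8 was in the gate and is given as a description: 383 and 459 CPM, 0.26 (0.14 to 0.37). Cebpa, the factor of early granulocyte and monocyte commitment, stood at 50.7 and 67.2 CPM, 0.41 (0.09 to 0.71). Cebpb, a factor of emergency myelopoiesis and mature monocytes, stood at 196 and 128 CPM, -0.61 (-0.82 to -0.41), and was lower in granule-low cells (-0.70) and in the neutrophil gate (-0.65). Egr1, which supports monocyte differentiation, had 14.4 and 4.24 CPM.

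Cebpe and S100a8 set the upper bound of the gate, so they too are described without support. Cebpe stood at 23.8 and 48.2 CPM, a log2 ratio of 1.02 (0.62 to 1.41), and S100a8, an alarmin gene of maturing neutrophils, had 209 and 18 UMIs, 35.8 and 9.53 CPM, -1.91 (-2.69 to -1.21). Cells thinned to 5000 UMIs had a Cebpe UMI in 10.7% (8.11 to 13.8) of members from wild type, against 19.6% (13.8 to 26.6) of those from knock-in. For S100a8 the shares were 11.3% and 3.68%. Without thinning they were 19.1% and 33.1% for Cebpe and 17.7% and 8% for S100a8.

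Thinned Car1 cells had Cebpe in 0.871% and 0.226% and S100a8 in 2.25% and 0.302%. The S100a8 level in Car1 cells was itself 8.965 CPM in wild type and 0.568 CPM in knock-in. A single wild-type Car1 cell held 105 of the 249 UMIs, and without it the level was 5.19 CPM. Elane was at 203.7 and 28.6 CPM in Car1 cells, with a UMI in 69.3% of those from wild type and 24.9% of those from knock-in. The part of free RNA in the S100a8 difference was not tested.

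Of 14 early progenitor genes 11 were higher in the knock-in library, with a median of 0.22. Over all measured genes 60.9% were higher, with a median of 0.09. The list median ran from 0.11 to 0.33 over the processing alternatives. It was 0.26 in granule-low, 0.74 in neutrophil-gate and 0.11 in Car1 cells. Cd34, a surface marker of progenitors, stood at 153 and 187 CPM, 0.29 (0.11 to 0.47), Myb at 203 and 255 CPM, 0.33 (0.17 to 0.48), and Sox4 at 134 and 179 CPM, 0.42 (0.23 to 0.60). Gpr171, a receptor gene, was at 11.1 and 24.4 CPM, 1.13 (0.55 to 1.70), and Kit at 54.5 and 55.1 CPM. Among 18 cytokine and chemokine receptor genes 15 were higher, with a median of 0.15. Cxcr4, the marrow retention receptor, stood at 31.9 and 51.9 CPM, 0.70 (0.33 to 1.06), and Il3ra, the interleukin-3 receptor alpha chain, at 47.7 and 66.7 CPM, 0.49 (0.17 to 0.79).

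Cell cycle genes did not move as a block, and over all measured genes 60.9% were higher and 39.1% lower. Of 24 S phase genes 19 were higher, with a median of 0.14; Mcm3 and Mcm5, helicase subunits of replication, had 0.32 and 0.34. The 24 G2 and M phase genes had a median of -0.09, with 9 higher and 15 lower. Top2a and Mki67 were at 0.33 each, and Ube2c (-0.51), Cenpa (-0.52), Ccnb2 (-0.50) and Cdk1 (-0.42) were lower. No gene of either list reached 1.5-fold, and after thinning a Mki67 UMI was present in 39.8% and 41.7% of cells (56.7% and 60.6% before).

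Among the lists with at least 5 measured genes, MHC class I had the lowest median, -0.52, with 12 of 14 lower and 7 of them by at least 1.5-fold. The shares over all measured genes were 39.1% lower and 5.31% at least 1.5-fold lower. H2-K1 and H2-D1, the classical heavy chains, had log2 ratios of -0.83 (-0.95 to -0.71), from 658 and 371 CPM, and of -0.70 (-0.80 to -0.60), from 779 and 479 CPM. B2m, the shared light chain, stood at 652 and 378 CPM, -0.79 (-0.91 to -0.67). The immunoproteasome genes Psmb8 and Psmb10 were near level, at -0.06 and 0.00.

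H2-Q4, H2-Q6 and H2-Q7 are near-identical copies whose reads a counter can split or discard, so their ratios (-2.30, -2.10 and -2.78) are uncertain. H2-Q7 is counted in the class I median and among the class I genes at least 1.5-fold lower. The class I medians were -0.32 in granule-low, 0.07 in neutrophil-gate and -0.40 in Car1 cells. H2-K1 was at -0.57, -0.46 and -0.52 in those 3 sets and B2m at -0.70, -0.31 and -0.69. Over the processing alternatives the class I median in granule-high cells ran from -0.60 to -0.29.

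The 9 measured interferon response genes had a median of 0.01, with 5 higher and 4 lower. Bst2, the antiviral protein tetherin, stood at 158 and 39.7 CPM, -1.996 (-2.36 to -1.66). Irf9, a factor of the interferon response, was at 0.01. Of the Ifi200 family, DNA-sensing proteins of the interferon system, 4 of 5 were higher, with a median of 0.63. Ifi202b had 0 UMIs in wild type and 41.8 CPM in knock-in granule-high cells. With wild type set to a floor of 3 UMIs over the group the ratio was 81.3-fold, a value that depends on that floor. Mndal stood at 70.8 and 115 CPM and Aim2 at 28.1 and 43.4 CPM. These family members lie together on a chromosome and resemble each other, so their counts can trade reads.

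Immediate early genes respond within minutes to stimulation and to cell handling. Of 18 measured, 16 were lower, 7 of them by at least 1.5-fold, with a median of -0.45. Of all measured genes, 39.1% were lower and 5.31% were at least 1.5-fold lower. Jun had a log2 ratio of -0.45 (-0.58 to -0.32), from 449 and 329 CPM. Fos had -0.43 (-0.58 to -0.29), from 354 and 263 CPM. Jund stood at 239 and 139 CPM, -0.78 (-0.98 to -0.59), and Klf2, a quiescence factor, at 81.4 and 36.0 CPM, -1.18 (-1.57 to -0.81). Ier2 (-0.12) and Myc (0.15) had intervals spanning 0. The list median was -0.45 in granule-low, 0.60 in neutrophil-gate and -0.21 in Car1 cells; the labels do not say whether the libraries were handled together.

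The remaining lists with more than 1 measured gene had medians between -0.14 and 0.25, against 0.09 over all genes. Their counts stand beside 60.9% higher and 39.1% lower over all genes. Lysosome and cathepsin genes were 12 higher and 10 lower of 22, with Man2b1, a mannosidase, at 104 and 162 CPM and Asah1, a ceramidase, at 50.9 and 32.8 CPM. Adhesion genes were 9 higher and 8 lower of 17; Cd52 stood at 320 and 222 CPM. S100 and annexin genes were 2 higher and 8 lower of 10, median -0.14, with Anxa5 at 142 and 94.8 CPM. Glycolysis genes were 4 higher and 9 lower of 13, led by Eno1, the enolase gene, at 235 and 101 CPM, -1.22 (-1.44 to -0.997), while Gapdh was at 2602 and 2575 CPM.

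Genes of p53 and cell cycle inhibition were 5 higher and 6 lower of 11. Cdkn1a, the inhibitor p21, had 5.31 and 13.2 CPM, 1.32 (0.50 to 2.12). Apoptosis regulators were 7 higher and 9 lower of 16. Of 30 ribosomal protein genes 26 were higher, median 0.20, with Rps29 at -1.29, and of 13 mitochondrially encoded genes 5 were higher, with mt-Nd3 at -1.37 and mt-Nd4l at -1.12. Rps29, mt-Nd3 and mt-Nd4l had ratios of -1.40, -1.18 and -1.01 in Car1 cells as well. The medians of the MHC class II list (3 measured), the lymphoid list (5) and the megakaryocyte list (4) were 0.04, 0.25 and 0.13. Of 4 measured mast and basophil genes 2 were higher and 2 lower, Tcf4 was the 1 measured dendritic cell gene (0.36), and 0 of 8 eosinophil genes were measured.

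**Figure D4:**
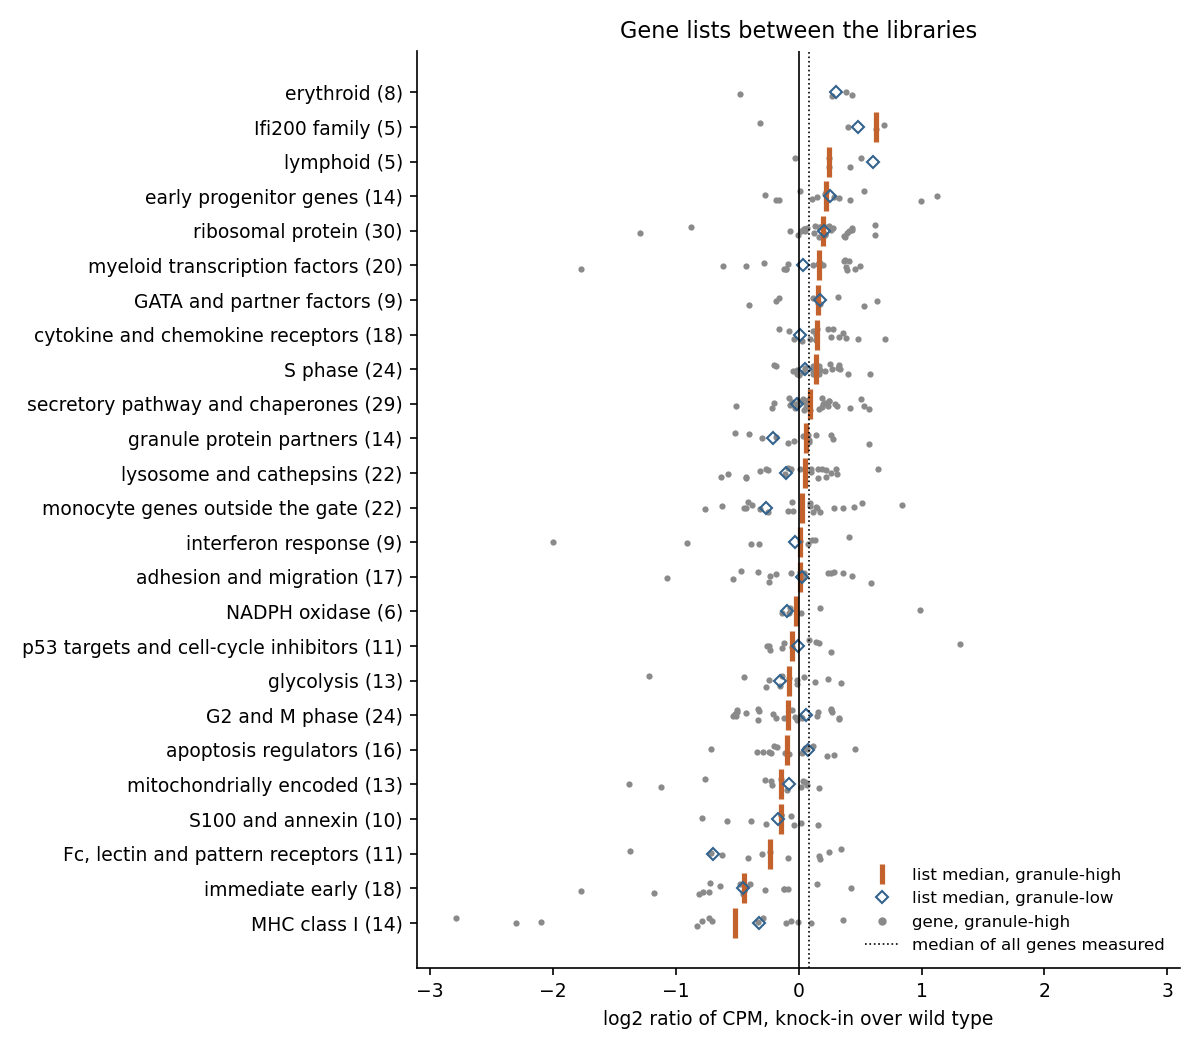
Log2 ratio of knock-in over wild type in granule-high cells for each measured gene (grey points) of the lists with at least 5 measured genes (number in parentheses), with the list median in granule-high (bar) and granule-low cells (diamond). MHC class I and immediate early genes lie to the left in both sets; 5 genes and the erythroid median of 4.06 fall beyond the axis.

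The genes lowest in knock-in granule-high cells were lower in the other cell sets too. Hist1h2ap, a replication-dependent histone gene, had 3644 and 108 UMIs, 625 and 57.2 CPM, -3.45 (-3.74 to -3.17). Its ratios were -3.77 in granule-low, -3.39 in neutrophil-gate and -3.96 in Car1 cells. Apoe, the apolipoprotein gene, had 151 and 3 UMIs in granule-high cells, -4.03 (-6.32 to -2.45), and -6.17 in Car1 cells. Gstp1, a glutathione transferase, had 268 and 8 UMIs, -3.44 (-4.67 to -2.44), and -2.91 in Car1 cells.

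Usp50, Fcor, Gm10076, Ndufa3, Apobec3 and Hist1h2ae also belonged to the 12 lowest, with ratios of -3.22 to -1.76 and negative ratios in the other 3 cell sets. Histone copies share sequence, and Usp50 overlaps Usp8, Ndufa3 Tfpt and Apobec3 Cbx7, so those counts are uncertain. Genes with short transcripts leaned the same way: of 43 measured genes with a median transcript of at most 400 bases, 37.2% were at least 1.5-fold lower, against 4.63% of 1470 genes above 2500 bases. The part of transcript length or library preparation in these ratios was not tested.

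The genes highest in knock-in granule-high cells were led by globins, most of whose UMIs lay in a single cell. Hbb-bs, an adult beta globin, had 6 and 837 UMIs, Hba-a1 2 and 349, Hbb-bt 2 and 206, and Hba-a2 0 and 200. A single knock-in cell held 1535 of the 1592 globin UMIs, and no other knock-in member had more than 2. That cell had 16340 UMIs, 359 CP10k of granule genes and 0 UMIs of Car1. Without it, the other 174 knock-in cells held 57 globin UMIs in 45 cells (25.9%), against 10 in 9 of 503 wild-type cells (1.79%), 30.4 and 1.71 CPM, a log2 ratio of 4.15 (3.17 to 5.29). The globins thus stayed higher in the knock-in library without that cell: Hbb-bs had 6 and 30 UMIs, 3.96 (2.67 to 5.52). In granule-low cells Hbb-bs had 10 and 215 UMIs, and in Car1 cells 98 and 550. The part of free RNA in these counts was not tested. The erythroid list median went from 4.06 to 0.13 without the cell, over 4 measured genes in place of 8, since the 4 globins then fell under 50 UMIs.

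Mcpt8, a basophil protease, had 53 and 55 UMIs, 1.68 (1.11 to 2.25), and 2 knock-in cells held 38 of the 55. The other leading genes were spread over the cell sets. Rida, a deaminase gene, stood at 20.2 and 55.1 CPM, 1.44 (1.05 to 1.84), and was at 0.51 in Car1 cells. Ocel1 stood at 21.4 and 59.3 CPM, 1.47 (1.09 to 1.85), and was at 1.84 in Car1 cells. Cdk2ap1, an inhibitor of a cell cycle kinase, stood at 50.9 and 114 CPM, 1.17 (0.91 to 1.43). Gm47283, annotated on chromosome Y, stood at 34.8 and 154 CPM, 2.15 (1.88 to 2.41), and was at 1.64 in Car1 cells.

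**Figure D5:**
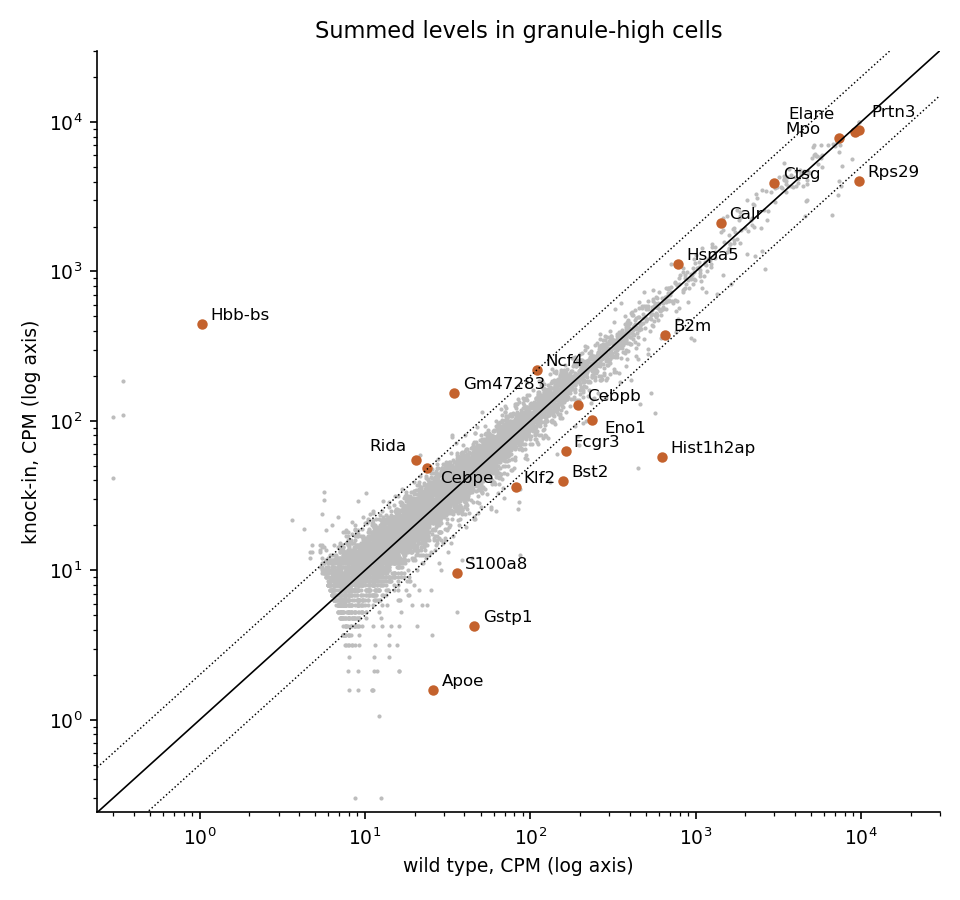
Level of each of 7868 measured genes in granule-high cells, wild type (x axis) against knock-in (y axis), in CPM on log axes; the solid line marks equal levels and the dotted lines 2-fold, and levels under 0.3 are drawn at 0.3. Named genes are orange, Hbb-bs stands apart, with 807 of its 837 knock-in UMIs in a single cell, and Elane, Prtn3, Mpo and Ctsg lie near the diagonal.

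Granule-high cells were compared with granule-low cells within each library; the granule genes chose these cells, so the values describe the split. Of 6405 genes measured in both libraries, 69 (1.08%) were at least 1.5-fold higher in granule-high cells in both and 173 (2.70%) at least 1.5-fold lower in both. Ms4a3 was at log2 1.57 (1.48 to 1.66) in wild type and 2.02 (1.86 to 2.19) in knock-in. Prss57 was at 1.36 and 2.09, Nkg7, a cytotoxic granule gene, at 1.70 and 1.56, and Trem3, a myeloid receptor, at 1.57 and 1.98. Rgcc, a cell cycle regulator, was at 1.72 and 1.79. Hp, the haptoglobin gene, was at 1.19 and 1.38, and Mgst1, a glutathione transferase, at 1.13 and 1.80.

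Of 14 granule protein partners 12 were higher in granule-high cells of both libraries, with medians of 0.81 and 0.87. The list summed to 5774 and 6321 CPM in granule-high cells and to 3679 and 3623 CPM in granule-low cells. In the neutrophil gate it summed to more, 11144 and 10132 CPM. Of 28 secretory pathway genes 25 were higher in both, with medians of 0.33 and 0.48, and of 13 glycolysis genes 11 were. Of all 6405 genes, 25.1% were higher in both, and the medians over all genes were -0.09 and -0.05.

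Lower in granule-high than granule-low cells were genes of antigen presentation, of earlier progenitors and of lymphoid or dendritic cells. Cd74, the invariant chain of MHC class II, was at 224 and 272 CPM in granule-low cells against 5 and 0 UMIs in granule-high cells. H2-Aa was at 65.6 and 58.5 CPM in granule-low cells. Satb1, a chromatin organiser of lymphocytes, was at log2 -1.61 and -1.54, and Tcf4, a factor of plasmacytoid dendritic cells, at -1.03 and -1.12. Adgrg1, an adhesion receptor of stem cells, was at -1.47 and -1.86, and Ifitm1 at -1.47 and -1.34. Of 14 early progenitor genes 12 were lower in both libraries, with medians of -0.75 and -0.57, and 8 of 8 interferon response genes were lower in both. Of all 6405 genes, 45% were lower in both.

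Among the granule-high cells, levels were followed over 4 bins of the granule sum, with the 4 granule genes left out of the total; the bins held 125 or 126 wild-type and 43 or 44 knock-in cells. Ms4a3 stood at 620, 691, 798 and 1106 CPM from the lowest to the highest bin in wild type and at 650, 721, 868 and 1171 CPM in knock-in. Ly6c2 went from 1144 to 1620 CPM and from 1091 to 1905 CPM between the lowest and highest bins. Prss57 went from 107 to 262 CPM and from 119 to 224 CPM. F13a1, the factor XIII subunit gene of monocytes and a gene of the gate, went the other way, from 408 to 239 CPM and from 387 to 227 CPM. Of the other gate genes, Ms4a6c went from 450 to 317 CPM and from 498 to 350 CPM. Irf8 changed less, from 405 to 375 CPM and from 381 to 392 CPM, as did Ly86, from 221 to 201 CPM and from 146 to 153 CPM. Ccr2 went from 91.1 to 42.4 CPM and from 81.2 to 51.8 CPM. The whole list of monocyte genes outside the gate did not fall between the lowest and highest bins. It summed to 5344 and then 5433 CPM in wild type and to 5126.5 and then 5675.5 CPM in knock-in.

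Calr stayed at 1390 to 1524 CPM over the wild-type bins and at 2012 to 2393 CPM over the knock-in bins. Every knock-in bin was thus above every wild-type bin in summed level, which does not give the spread over cells. Hspa5 was at 771 to 864 CPM in wild-type and 1025 to 1493 CPM in knock-in bins. MHC class I genes summed to 3397 to 3666 CPM in wild-type and 2415 to 2694 CPM in knock-in bins. Cebpe was at 17.2, 17.8, 23.1 and 42.4 CPM in wild type and at 37.5, 25.4, 75.7 and 61.6 CPM in knock-in. Median depth was 10841 to 12217 UMIs over the wild-type bins and 9758 to 11590 UMIs over the knock-in bins.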

How the data were processed

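The authors deposited 1 matrix of raw UMI counts per library, made with Cell Ranger 3.1.0 per the file headers; the submitters' processing notes name the mm10 build. How barcodes were chosen is not given in the sources used here; the lowest barcode total was 500 UMIs. The deposited counts summed to 70543211 UMIs over 7471 barcodes in wild type and 48005467 over 6640 in knock-in. The cell filter asked for 500 or more genes, 1000 or more UMIs and a mitochondrial share of 10% or less. No doublets were removed; Scrublet, run through scanpy 1.11.5, automatically called 146 wild-type cells and 4 knock-in cells (0.0692%), too few to be trusted, so removing the highest 5% of scores was an alternative.

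The gate, the members, the 31 gene lists and the markers were chosen with earlier results of these data known. UMIs were summed per library and cell set. Ratios carry exact binomial intervals at 95%; a library at 0 was set to a floor of 3 UMIs. Genes with at least 50 UMIs over both libraries were measured. Named genes were the 12 in each direction whose interval lay farthest from 0, given 100 or more UMIs in 1 library, leaving out ribosomal protein and mitochondrial genes, the 10 most different each way between granule-high and granule-low cells, the best counted of each list and the rule genes. Others in the text were chosen after their values were seen. Some genes are not reported here. The interval calculation was tested on simulated data. Gene models came from GENCODE M21, in which 30934 of 31053 gene identifiers were found. Python 3.11.15, numpy 2.4.6 and scipy 1.17.1 were used.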

Additional observations from a re-analysis of the deposited data

Results flagged for a closer look

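The values below are given because the knock-in over wild-type log2 ratio in granule-high cells had the opposite sign in another cell set of the same libraries. With 1 library per genotype the difference between the cell sets was not tested in any of them.

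Against granule-low cells, Mpo was at 0.08 and -0.26, the monocyte antigen gene Ly6c2 at 0.14 and -0.52, the basophil protease gene Mcpt8 at 1.68 and -0.999, and mt-Co3 at 0.03 and -0.05, each in granule-high and then granule-low cells. Against the neutrophil gate, which held 242 wild-type and 70 knock-in cells, the immediate early list had medians of -0.45 and 0.60. Within that list Jun was at -0.45 and 0.63 and Jund at -0.78 and 0.61. Lcn2, the lipocalin gene of neutrophil specific granules, was at -1.15 and 2.83, Ly6c2 at 0.14 and -1.05, the replication gene Mcm6 at -0.18 and 0.43, Mcpt8 at 1.68 and -1.29, and mt-Co3 at 0.03 and -0.18. Single cells of that gate differed widely. Cebpe, S100a8, S100a9 and Fcnb together had a median of 8.46 and a highest cell of 4607 CP10k in knock-in. In wild type these were 10.9 and 751 CP10k. The part of a few cells in the Lcn2 ratio was not tested.

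The erythroid list had medians of 4.06 and -1.74, with Hbb-bs at 8.75 and -4.39, Hba-a2 at 7.69 and -3.76, Hba-a1 at 9.07 and -6.22, and Hbb-bt at 8.31 and -4.00. A single knock-in granule-high cell held 1535 of the 1592 globin UMIs; the other 174 held 57, against 10 in 503 wild-type cells.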

How the results depend on the processing

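No paired analysis was possible because there was 1 library per genotype and the labels give no replicate numbers. For the same reason no library could be left out. There were 14 alternatives to the cell filter, gate, granule limit, doublets, depth, scaling and gene minimum. Under them, 395 of 420 list medians moved by less than 0.2, a fixed tolerance and not an interval. Of 2281 ratios of named genes, 2204 stayed within their counting interval. Of 320 log2 ratios of granule-high over granule-low cells, under the 8 alternatives that change the cells, 260 stayed within their interval, none changed direction, and 60 moved, affecting 31 of 40 results; 26 of the 60 came from gating on thinned cells and 18 from a higher granule limit. Ms4a3 ran from 1.28 to 2.27 and Trem3 from 1.14 to 2.35 in wild type. With the granule limit at the median of each library, the log2 ratio for the share of filtered cells was -1.29 and for the share of gated monocyte progenitors 0.0036, a value that this limit fixes by construction; the other alternatives gave -0.50 to -0.11. With genes of 1 or more UMIs, 2406 genes were 2-fold higher and 466 lower; with 200 or more, 15 and 46. Scaling by median ratios gave 50 and 159, and Mpo -0.0036, Rps20 -0.038 and mt-Co3 -0.051. Car2 was at -0.11 with the gate at 10 CP10k and at -0.018 without the globin-rich knock-in cell, an alternative chosen after seeing the data. The Fc, lectin and pattern receptor median was 0.17 with genes of 1 or more UMIs. The causes were not tested. Depth limits genes below about 50 UMIs.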
